A study of Mus musculus with 18 samples.

Results

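The nuclear-encoded genes of the mitochondrial respiratory chain were described in RAW264.7 cells, a mouse macrophage line, in total mRNA and in mRNA bound to heavy polysomes. Genes were taken from the count table by symbol. They were those that begin with Nduf, Uqcr, Atp5, Cox4, Cox5, Cox6, Cox7 or Cox8, with Sdha, Sdhb, Sdhc, Sdhd and Cycs added. The rule found 86 of the 11243 genes in the table, or 0.765% of them. By the complex they belong to, 36 encode subunits of complex I, 4 of complex II, 8 of complex III, 12 of complex IV and 15 of complex V, and Cycs encodes cytochrome c. The other 10 share the prefixes but encode assembly factors or associated proteins. They are 7 Ndufaf genes, Cox7a2l, Atp5s and Atp5sl. Ndufa4, named for complex I, was counted with complex IV, of which its protein is now known to be a subunit.

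The respiratory chain passes electrons from NADH and succinate through complexes I and II to ubiquinone, then through complex III and cytochrome c to complex IV, which reduces oxygen. Complexes I, III and IV pump protons, and complex V, the ATP synthase, uses the proton gradient to make ATP. Most subunits are encoded in the nucleus and imported, while a small core is encoded in mitochondrial DNA. Macrophages exposed to bacterial lipopolysaccharide (LPS) are known to turn towards glycolysis, and mTOR, the kinase that torin1 inhibits, is known to promote the translation and transcription of mitochondrial genes.

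Control cells received vehicle. They are labelled as vehicle-treated, the methods name DMSO, and elsewhere the study calls these cells untreated. The second group received 500 ng/mL LPS for 6 h, and the third received 100 nM torin1 for 15 min before the same 6 h of LPS. Each treatment was carried out in 3 independent experiments, and total mRNA and pooled heavy-polysome mRNA were both sequenced from every lysate, so that 9 lysates gave 18 libraries. All cells were of a single transformed line, and no group received torin1 without LPS. The 9 macrophage markers examined were in the table and summed to between 10710 and 14270 CPM, the count scaled to the size of the library, in total mRNA. None of 5 epithelial and 6 lymphoid markers was in it, and of 7 fibroblast markers only Pdgfrb was, at 1.725 CPM or less in every library.

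Library totals ran from 27800983 to 47725557 counts, and a single respiratory gene had between 40 and 108161 counts in a library. The 86 genes took 1.08 to 1.12% of the counts of total mRNA in control cells, 0.859 to 0.898% with LPS, and 0.816 to 0.843% with LPS and torin1. In polysome-associated mRNA the shares were 1.47 to 1.60%, 1.25 to 1.33% and 1.12 to 1.23% in the same order. The share was lower with LPS in each experiment. It is a share of all counted reads, so it also moves with the most abundant genes. The values below were scaled by TMM, which centres the bulk of all genes. Scaling to library totals alone would shift every LPS against control change by −0.37 on the log2 scale in total mRNA and by −0.35 in polysome-associated mRNA, and every torin1 against LPS change by 0.07 and 0.06. All changes are relative to this centre, and less mRNA per cell cannot be told apart from fewer cells contributing it.

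Some libraries stood apart by the base composition of their transcripts. In the polysome libraries of control experiment 1, LPS experiment 2 and LPS with torin1 experiment 2, a gene's deviation from the other libraries of its group rose with the GC content of its transcript, with Spearman coefficients of 0.65, 0.53 and 0.61 over 10756 genes of one library each. The polysome libraries of control experiment 2 and of LPS with torin1 in experiments 1 and 3 deviated the other way, at −0.51, −0.42 and −0.5. In total mRNA, LPS experiment 1 was at −0.56 and LPS experiment 2 at 0.41. Among the respiratory genes, the 43 GC-richer ones had a median deviation of 0.36 in the polysome library of LPS experiment 2 and 0.48 in that of LPS with torin1 experiment 2, with the 43 GC-poorer ones at −0.01 and −0.03. In the polysome libraries of control experiments 1 and 2 the GC-richer ones were at −0.12 and 0.03, and the GC-poorer ones at −0.30 and 0.25. Counts of calls are therefore given also after a correction for GC, which was chosen after seeing the data, and without single experiments where this mattered.

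**Figure D1:**
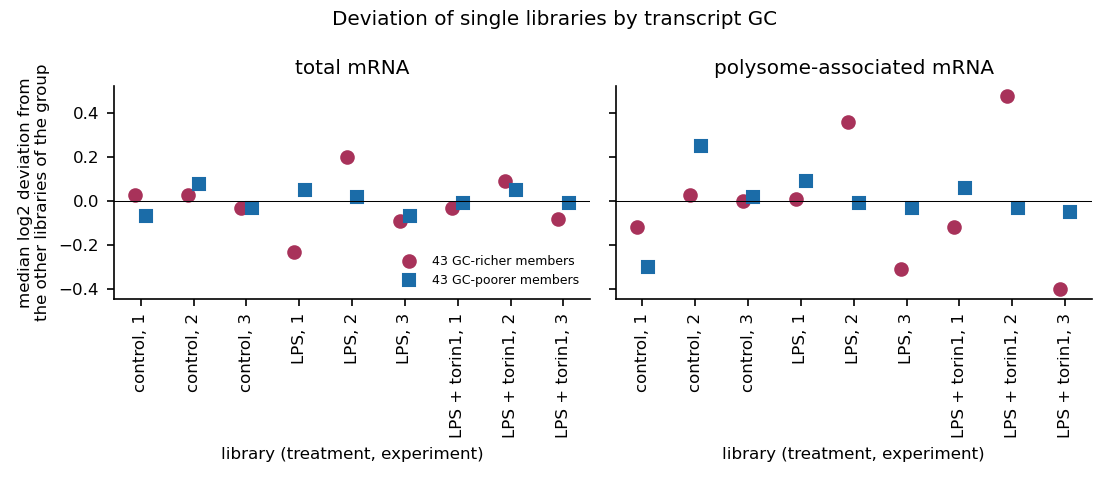
Median log2 deviation (vertical axis) of the 43 GC-richer respiratory genes (circles) and the 43 GC-poorer ones (squares) in each of the 18 libraries from the mean of the other libraries of its group. The GC-richer genes range from −0.23 to 0.2 in total mRNA and from −0.4 to 0.48 in polysome-associated mRNA.

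The promoters of several of the genes carry short motifs of regulators that are known to act on respiratory genes. They are shown for genes on which the results below turn. RefSeq promoters of 300 bases (250 before and 50 after the start, build GRCm38.p6) were given for 74 of the 86 genes. On both strands, GCGCATGCG, a core of the site of nuclear respiratory factor 1 (NRF1), was found in 11 of the 74, or 14.9%, against 4.5% of the 8568 promoters of genes in the table and 2.0% of all 27025. The letters CCGGAAG, a core bound by ETS factors such as GABP (NRF2), were found in 17, or 23%, against 21.6% and 9.9%. The letters AAGATGGCG, shared by YY1 sites and the TISU element of short leaders, were found in 8, or 10.8%, against 4.0% and 1.6%. Motifs may overlap, and the NRF1 letters are nearly palindromic, so the same site often matched on both strands. A match describes letters and is not a site shown to be bound. Windows of 30 bases are printed in the direction of the gene, with the match in capitals.
Cycs, NRF1, chr6:50566611-50566640, − strand: catgctagctCGCATGCGCgcgcacaaacc
Ndufaf4, NRF1, chr4:24897960-24897989, + strand: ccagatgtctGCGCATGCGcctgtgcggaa
Ndufaf5, NRF1, chr2:140170652-140170681, + strand: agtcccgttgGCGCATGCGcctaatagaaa
Atp5g2, NRF1, chr15:102671070-102671099, − strand: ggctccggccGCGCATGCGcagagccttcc
Sdhd, ETS, chr9:50603877-50603906, − strand: ccgtctcctgcCTTCCGGttcacgcttcag
Ndufs4, YY1 or TISU, chr13:114388045-114388074, − strand: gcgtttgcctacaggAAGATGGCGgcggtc
Atp5sl, YY1 or TISU, chr7:25619430-25619459, + strand: gttacctggcAAGATGGCGgcgcccagagc

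The matches of Cycs, Atp5g2 and Sdhd end 53, 34 and 40 bases before the start of the gene, and that of Ndufaf4 also lies before it. That of Ndufaf5 begins 17 bases after it, within the transcribed leader. That of Ndufs4 begins 36 bases after it and, by the GENCODE coordinates, spans the start codon. RefSeq gives Atp5sl 2 starts, and its match begins 27 bases after one and 53 bases before the other. In the GENCODE M21 annotation of GRCm38, Cycs (ENSMUSG00000063694) lies at chr6:50562563-50566538 and Sdhd (ENSMUSG00000000171) at chr9:50596357-50603812. Atp5g1 (ENSMUSG00000006057) lies at chr11:96068852-96075670 and Cox7a2l (ENSMUSG00000024248) at chr17:83501918-83517330, and these 4 are on the − strand. Ndufaf4 (ENSMUSG00000028261) lies at chr4:24898083-24905001 and Atp5sl (ENSMUSG00000057229) at chr7:25619414-25625551, both on the + strand.

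Levels were compared between genes as CPM per kilobase of the principal transcript, in total mRNA of control cells. Atp5b, the catalytic beta subunit of the ATP synthase, was the most abundant of the 86 genes at 760.1 ± 20.2 CPM per kb (SD, n = 3). In complex IV, Cox4i1 was highest at 554.4 ± 32.4. Uqcrh, the hinge protein of complex III, was at 288.6 ± 35.6, Ndufb8 led complex I at 180.1 ± 7.02, and Sdhd led complex II at 138.6 ± 12.2. Cycs was at 24.49 ± 0.93. These 6 levels were further apart than the sum of the SDs of neighbours in that order. The median gene of complex I was at 55.7 CPM per kb, below those of complex II (92.0), complex III (121), complex IV (127) and complex V (121). The assembly and associated genes had a median of 10.1, and the lowest of them, Atp5s, was at 2.32. In polysome-associated mRNA the medians were 88.9, 108, 163, 250 and 218 CPM per kb for complexes I to V and 10.6 for the assembly group.

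The comparison of heavy polysomes with total mRNA in control cells asks how enriched these mRNAs were in the pooled heavy fraction, relative to the bulk of all genes. It does not count the ribosomes on an mRNA. A gene was called with a false discovery rate (FDR) of 0.25, the study's threshold, and a fold of at least 1.2. Of the 86 genes, 67 were higher on polysomes and 5 were lower, against a background of 34.3% higher and 31.1% lower over all 11243 genes. The median difference was 0.65 ± 0.04 on the log2 scale (SD over 3 experiments), against 0.03 for all genes, and 70 genes were higher on polysomes in all 3 experiments. Such agreement over experiments was counted for the 86 genes only. The genes lower on polysomes were Ndufaf4, Ndufaf1, Ndufs1, Atp5s and Sdha.

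All 12 complex IV genes were called higher on polysomes, with a median of 0.86 ± 0.10. Complex I had 30 of 36 higher and 1 lower (median 0.71 ± 0.12), complex II 3 and 1 of 4, complex III 5 of 8, complex V 12 of 15 (0.58 ± 0.09), and the assembly group 4 higher and 3 lower of 10 (0.11 ± 0.08). Differences between complexes were not tested. Within complex I, the 29 accessory subunits, which surround the catalytic core, had a median of 0.83 ± 0.14. The 7 core subunits, which carry the flavin and iron-sulphur centres, had 0.36 ± 0.02. Within complex V the membrane subunits lay at 1.06 ± 0.24 and the c ring at 0.80 ± 0.11, while the F1 head and stalk lay at 0.40 ± 0.12 and the peripheral stalk at 0.18 ± 0.09.

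Cox6a1, a small subunit of complex IV, had the largest difference. Its level in total mRNA of control cells was 71.9, 55.47 and 70.85 CPM, and its level on polysomes was 194.6, 118.5 and 195.8 CPM. The polysome libraries were all above the total libraries. The log2 difference was 1.36 ± 0.37 (SE), with an adjusted p of 0.00664 by edgeR's quasi-likelihood test (Benjamini-Hochberg). Ndufc2 of complex I and Cox7a1 of complex IV followed at 1.26 and 1.25. At the other end stood Ndufaf4, an early assembly factor of complex I, with 59.69, 55.72 and 58 CPM in total mRNA and 28.9, 44.67 and 34.17 CPM on polysomes. The groups did not overlap, and the difference was −0.68 ± 0.13 (edgeR adjusted p = 0.000773). Ndufs1, the largest core subunit of complex I, was at −0.46 ± 0.21 (edgeR adjusted p = 0.0737) and Atp5s at −0.45 ± 0.24 (edgeR adjusted p = 0.124).

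The coding lengths of the 86 genes run from 156 to 2181 bases. The difference between polysomes and total mRNA was larger for the shorter ones. Across the 86 genes, Spearman's rho with coding length was −0.63 and Pearson's r with its logarithm −0.62. The rho was −0.37, −0.76 and −0.62 in experiments 1, 2 and 3. The median difference was 0.89 for the 42 genes shorter than 438 bases and 0.39 for the 44 others. Genes share libraries and are not independent replicates, and the relation is a description. GC content also moved with the difference, at a rho of 0.39, and the part each has in it was not tested.

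**Figure D2:**
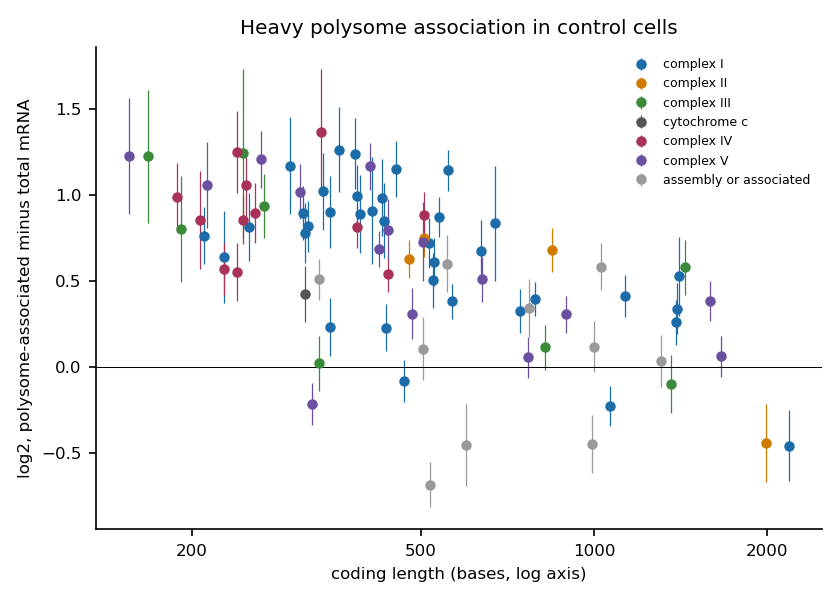
Log2 difference between polysome-associated and total mRNA in control cells (vertical axis, bars are SE of the edgeR fit) against coding length in bases (log axis) for the 86 genes, coloured by complex. Short genes of complexes I, IV and V lie mostly between 0.5 and 1.5, and the 2 longest genes, Ndufs1 and Sdha, lie at −0.46 and −0.44.

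The 13 subunits encoded in mitochondrial DNA are translated by mitochondrial ribosomes. Of these, 10 were in the table, and all 10 were lower in the polysome libraries, by a median of −2.50 ± 0.67. The range ran from −1.59 (mt-Co1) to −3.39 (mt-Nd1).

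**Figure D3:**
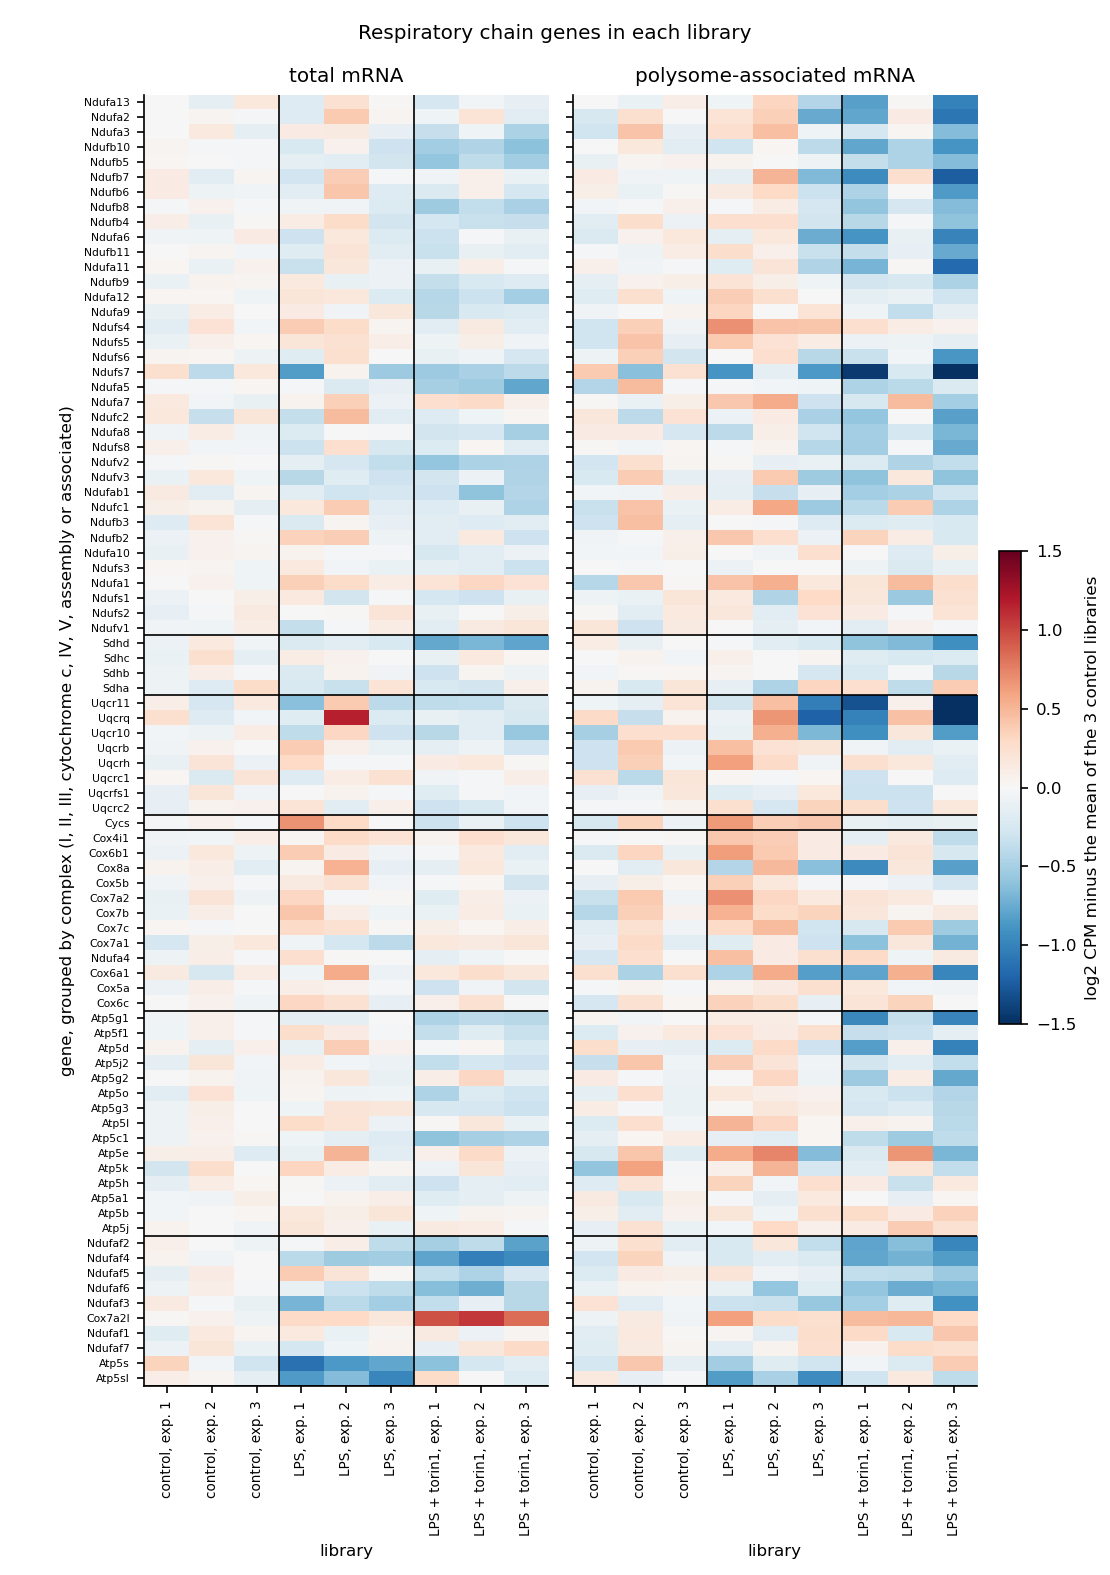
Log2 CPM of each of the 86 genes (rows, by complex and then by the change with torin1 on polysomes) in each of the 18 libraries (columns), relative to the mean of the 3 control libraries of the same RNA type. The scale runs from −1.5 (blue) to 1.5 (red). Cox7a2l stands out as higher with torin1 in total mRNA, and blue fills most of complex I in the polysome libraries with torin1 of experiments 1 and 3.

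LPS against control asks what 6 h of activation did to these genes. Most of them did not pass the test. In total mRNA 9 rose and 11 fell at an FDR of 0.25, against 32.2% and 34.3% of all genes tested. In polysome-associated mRNA 8 rose and 3 fell, against 26.4% and 28.7%. The median change was 0.00 ± 0.05 in total mRNA and −0.01 ± 0.12 on polysomes, and over all genes it was −0.02 and −0.03. With the correction for GC, 24 rose and 11 fell in total mRNA (37.9% and 33% of 10756 genes), and 19 rose and 6 fell on polysomes (33.7% and 29.6%). The medians were then 0.08 and 0.12. On polysomes the count without the correction was 1 without experiment 1, 35 without experiment 2 and 2 without experiment 3. Over all 11243 genes those fits called 3901, 7251 and 4224.

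Of the genes that fell in total mRNA, 5 of 11 belonged to the assembly or associated group of 10. Atp5sl, now called Dmac2 and known as an assembly factor of the membrane arm of complex I, was at 18.89, 18.25 and 16.07 CPM in control cells, and LPS cells had 9.81, 11.31 and 9.016 CPM. The groups were well apart, and the gene fell by 0.82 ± 0.15 on the log2 scale (edgeR adjusted p = 0.00146). On polysomes it fell by 0.74 ± 0.19 (edgeR adjusted p = 0.0136). Atp5s was the gene with the largest fall, of 0.93 ± 0.23 (edgeR adjusted p = 0.00763), with 4.283, 3.291 and 2.751 CPM before LPS and 1.564, 1.861 and 1.976 CPM after it. It is among the least abundant of the 86. Its change on polysomes was −0.36 ± 0.27 and did not pass.

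Among the assembly factors of complex I, Ndufaf3 fell by 0.53 ± 0.14 in total mRNA (edgeR adjusted p = 0.00959) and by 0.41 ± 0.20 on polysomes (edgeR adjusted p = 0.148). Ndufaf4 was at 59.69, 55.72 and 58 CPM in total mRNA of control cells, and LPS cells had 43.76, 39.97 and 40.14 CPM. It fell by 0.49 ± 0.09 (edgeR adjusted p = 0.00187), again with no overlap. Ndufaf6 fell and Ndufaf5 rose, and Ndufaf1, Ndufaf2 and Ndufaf7 did not pass. Among the 41 assembly factors of the complexes outside the rule that were in the table (of 45 listed), 6 rose and 20 fell in total mRNA, against the 32.2% and 34.3% of all genes. Cox17, a copper chaperone for complex IV, rose by 1.31 ± 0.16, and Coa6, another factor for complex IV, fell by 1.04 ± 0.20. Sdhaf1, for complex II, and Bcs1l, for complex III, fell by 0.84 and 0.83.

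Of the 9 genes that rose in total mRNA, 7 encode structural subunits or cytochrome c, as do all but 10 of the 86 genes. The others were Cox7a2l and Ndufaf5 of the assembly or associated group. Cycs rose by 0.35 ± 0.15 in total mRNA (edgeR adjusted p = 0.0878) and by 0.46 ± 0.17 on polysomes (edgeR adjusted p = 0.0565). In total mRNA its control libraries were at 74.87, 79.85 and 74.77 CPM and its LPS libraries at 122, 94.23 and 75.92 CPM. The LPS libraries spread widely and the lowest of them lay among the controls. Cox7a2l, which encodes a factor that joins complexes III and IV in supercomplexes, rose by 0.26 ± 0.10 and 0.38 ± 0.15 in total and polysome-associated mRNA. Ndufa1 of complex I rose by 0.25 ± 0.10 in total mRNA, and Ndufs4, an accessory subunit of complex I, rose by 0.49 ± 0.18 on polysomes (edgeR adjusted p = 0.0562).

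By complex, LPS called 3 genes higher and 5 lower of 36 in complex I in total mRNA. Over all genes 32.2% were higher and 34.3% lower there. Complex II had 1 lower of 4 (Sdhd, −0.21 ± 0.09), complex III none of 8, complex IV 2 higher of 12 (Cox7c and Cox4i1) and complex V 1 higher of 15 (Atp5b). On polysomes, complex IV had 4 higher of 12 (Cox4i1, Cox6b1, Cox7a2 and Cox7b, at 0.31 to 0.38), with a median of 0.19 ± 0.24. Complex I had 2 higher and 1 lower. The counts in complexes II, III and V were 0. Over all genes 26.4% were higher and 28.7% lower on polysomes.

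LPS with torin1 against LPS asks which of these mRNAs depended on mTOR in activated cells. Most of the genes that passed the test were lower with torin1. In total mRNA 36 of 86 fell and 5 rose, against 26.4% and 27.3% of all genes. In polysome-associated mRNA 31 fell and 1 rose, against 18.2% and 20.3%. The median change was −0.16 ± 0.05 in total mRNA and −0.31 ± 0.11 on polysomes, and the medians of all genes were 0.01 and −0.00. On polysomes 65 of the 86 genes were lower in all 3 experiments and 4 higher, a count not made over all genes. With the correction for GC, 51 fell and 3 rose in total mRNA (31.5% and 27.4% of genes), and 46 fell and 1 rose on polysomes (26.8% and 24.2%).

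The count on polysomes depended on which experiments were in the fit. Without experiment 1 it was 4, without experiment 2 it was 49 and without experiment 3 it was 1. Over all 11243 genes the same fits called 1782, 5182 and 1187 in both directions, against 4322 with every experiment. The median of the 86 stayed between −0.35 and −0.25 with any experiment left out. In total mRNA, 25 genes were called without experiment 1, 34 without experiment 2 and 26 without experiment 3. Over all genes these numbers were 5183, 5385 and 3959. Of the genes lower in total mRNA, 24 were also lower on polysomes, which is 66.7% of the 36 and 77.4% of the 31. This overlap was not counted over all genes, and both RNA types came from the same lysates, so it is not a trait of these genes. The 7 lower on polysomes alone were Sdhc, Atp5g2, Atp5l, Cox4i1, Ndufa13, Ndufb6 and Ndufb11. Whether their 2 changes differed was tested as translation efficiency, given below.

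**Figure D4:**
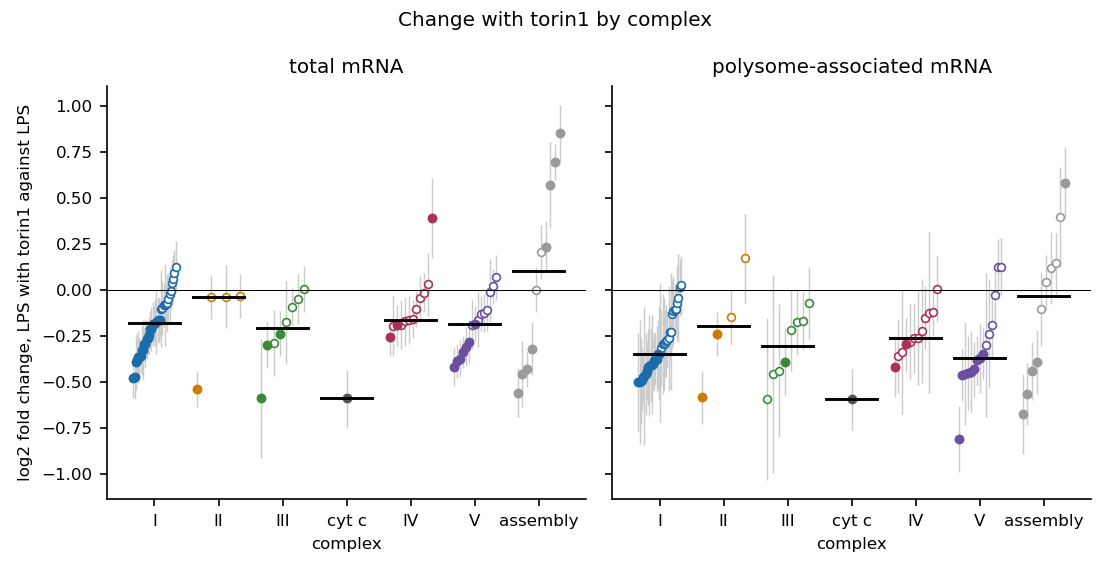
Log2 fold change of LPS with torin1 against LPS (vertical axis, bars are SE) for each gene, by complex, in total and polysome-associated mRNA. Filled points passed an FDR of 0.25, and black lines are medians of the fitted changes, which lie below 0 in all 5 complexes in both RNA types.

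Complex I had 18 of 36 genes lower in total mRNA and 13 on polysomes, against 26.4% and 18.2% of all genes. Its median on polysomes was −0.35 ± 0.12. All 13 were accessory subunits, of 29, and none of the 7 core subunits passed on polysomes (3 did with the correction for GC). Over all genes 18.2% were lower on polysomes, and 26.8% with the correction. At such shares few calls would fall among 7 genes. Whether core and accessory subunits differed was not tested. The ends of the range in total mRNA were Ndufa5, which fell by 0.48 ± 0.11 (edgeR adjusted p = 0.00859), and Ndufv1, the NADH-binding flavoprotein, at 0.13 ± 0.14, which did not pass. On polysomes the ends were Ndufa13, which fell by 0.50 ± 0.27 (edgeR adjusted p = 0.237), and again Ndufv1, at 0.03 ± 0.16. Ndufb8 was at 114.1 ± 6.47 CPM with LPS and 88.85 ± 4.98 CPM with torin1 in total mRNA (SD, n = 3). It fell by 0.36 ± 0.09 (edgeR adjusted p = 0.0151). On polysomes it fell by 0.44 ± 0.16.

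In complex II, Sdhd, a membrane anchor of succinate dehydrogenase, had one of the clearest changes. In total mRNA it was at 160.2, 187.8 and 164 CPM in control cells, 146.1, 150.8 and 145.5 CPM in LPS-treated cells, and 99.7, 106.2 and 98.26 CPM with torin1. On polysomes the levels were 283.9, 242.9 and 262.4 CPM, then 256.6, 235.8 and 223.6 CPM, then 173, 165.6 and 139.2 CPM. The torin1 libraries lay below all others in both RNA types. Sdhd fell by 0.54 ± 0.09 in total mRNA (edgeR adjusted p = 0.0027) and by 0.58 ± 0.14 on polysomes (edgeR adjusted p = 0.0237). The other subunits were at −0.03 (Sdhc) and −0.04 (Sdha and Sdhb) in total mRNA, and none passed there. On polysomes Sdhc fell by 0.24 ± 0.12, with Sdhb at −0.15 ± 0.15 and Sdha at 0.17 ± 0.24.

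In complex III, 3 of 8 genes were lower in total mRNA and 1 on polysomes, against 26.4% and 18.2% of all genes. Its median on polysomes was −0.29 ± 0.14. Uqcrb fell in both, by 0.30 ± 0.12 and 0.39 ± 0.18. Uqcrq was called lower in total mRNA at −0.59 ± 0.32 (edgeR adjusted p = 0.197). Its LPS libraries were at 12.9, 32.98 and 12.75 CPM, and the other 6 libraries of total mRNA were between 12.4 and 17.31 CPM. A single library, of experiment 2, was high, and the change was −1.34 in that experiment against 0.07 and −0.04 in the others. Over the alternatives its adjusted p by edgeR, DESeq2 or limma ran from 0.129 to 0.953. The highest values of the complex were Uqcrh in total mRNA, at 0.01, and Uqcrc2 on polysomes, at −0.07. Uqcr11 had the lowest value on polysomes, −0.59 ± 0.44, and did not pass. Cyc1, the cytochrome c1 of the same complex, which the symbol rule leaves out, fell by 0.38 ± 0.11 in total mRNA and 0.37 ± 0.15 on polysomes.

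Cycs was at 122, 94.23 and 75.92 CPM with LPS and at 61.36, 71.25 and 61.46 CPM with torin1 in total mRNA. On polysomes it was at 156.5, 130.5 and 133.6 CPM with LPS and at 93.5, 91.74 and 93.37 CPM with torin1. The groups did not overlap in either RNA type. Cycs fell by 0.59 ± 0.15 in total mRNA (edgeR adjusted p = 0.0169) and by 0.59 ± 0.17 on polysomes (edgeR adjusted p = 0.0385).

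In complex IV, 2 of 12 genes were lower in each RNA type, no more than the 26.4% (total) and 18.2% (polysomes) of all genes. Cox5b was lower in both, Cox5a in total mRNA, by 0.26 ± 0.10, and Cox4i1 on polysomes. Cox7a1 was called higher in total mRNA at 0.39 ± 0.22 (edgeR adjusted p = 0.204), at levels between 1.235 and 1.847 CPM. Ndufa4 was at −0.16 ± 0.10 in total mRNA and −0.15 ± 0.17 on polysomes. Cox4i1 was at 1003, 984 and 830.8 CPM on polysomes with LPS and at 684.7, 842.1 and 584.7 CPM with torin1. The lowest LPS library lay below the highest torin1 library, which came from experiment 2. The gene fell by 0.42 ± 0.17 on polysomes (edgeR adjusted p = 0.12), while its total mRNA was at −0.02 ± 0.11. Cox6c, at 0.00 on polysomes, was the highest. The median of complex IV on polysomes was −0.26 ± 0.12.

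In complex V, 7 of 15 genes were lower in total mRNA and 8 on polysomes, against 26.4% and 18.2% of all genes. Its median on polysomes was −0.36 ± 0.05. The 3 genes of the c ring, the rotor in the membrane, encode the same mature protein with different import sequences, and all 3 fell on polysomes. Atp5g1 was at 201.6, 202 and 183 CPM on polysomes with LPS and at 95.12, 145.6 and 93.72 CPM with torin1. No libraries overlapped, and the torin1 library of experiment 2 was the highest of its group. Atp5g1 fell by 0.81 ± 0.18 on polysomes (edgeR adjusted p = 0.015), the largest fall among the 86 genes there. Its adjusted p stayed between 0.00056 and 0.218 in every alternative run. In total mRNA it fell by 0.34 ± 0.09, from 76.14, 75.84 and 83.98 CPM to 60.61, 63.45 and 62.68 CPM.

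Atp5g3 fell by 0.37 ± 0.10 in total mRNA and by 0.38 ± 0.13 on polysomes. Atp5g2 fell by 0.44 ± 0.22 on polysomes (edgeR adjusted p = 0.2), with total mRNA at 0.07 ± 0.12. Reads of Atp5g2 are uncertain, because 100% of the 50-base words of its principal transcript also occur in pseudogenes or other genes. That transcript has 441 bases of the 1675 in the exons of the gene, and the rest was not checked. In the peripheral stalk, Atp5f1 fell by 0.42 ± 0.11 in total mRNA and 0.46 ± 0.14 on polysomes, and Atp5j was at 0.02 and 0.13. Of the F1 head, Atp5c1 fell in both RNA types, and Atp5b was at −0.13 ± 0.09 in total mRNA and 0.12 ± 0.15 on polysomes.

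The assembly and associated group moved both ways. In total mRNA 4 of 10 fell (Ndufaf2, Ndufaf4, Ndufaf5 and Ndufaf6) and 4 rose (Atp5sl, Cox7a2l, Atp5s and Ndufaf3). On polysomes the same 4 fell and Atp5sl rose. Over all genes 26.4% fell and 27.3% rose in total mRNA, and 18.2% and 20.3% on polysomes. Ndufaf4 had 33.46, 28.43 and 29.89 CPM with torin1 in total mRNA, below all LPS libraries given above, and fell by 0.43 ± 0.09 (edgeR adjusted p = 0.00783). On polysomes it fell from 30.08, 31.29 and 30.36 CPM to 20.59, 21.67 and 19.75 CPM, by 0.56 ± 0.17 (edgeR adjusted p = 0.0509). Ndufaf5 fell by 0.56 ± 0.13 in total mRNA and Ndufaf2 by 0.67 ± 0.22 on polysomes. Atp5sl rose by 0.85 ± 0.15 in total mRNA, to 21.45, 17.75 and 15.33 CPM, and by 0.58 ± 0.19 on polysomes.

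Cox7a2l was the gene that rose most clearly. In total mRNA it was at 80.86, 83.66 and 75.59 CPM in control cells, 97.93, 98.52 and 90.1 CPM in LPS-treated cells, and 155, 166.8 and 142.8 CPM with torin1. The 3 groups were in order with no overlap. It rose by 0.70 ± 0.10 over LPS (edgeR adjusted p = 0.000789). On polysomes it was at 107.5, 124.5 and 109.2 CPM, then 173.8, 136.8 and 133.9 CPM, then 157.9, 159.9 and 139.7 CPM. There the LPS and torin1 libraries overlapped, and the change was 0.04 ± 0.15 (edgeR adjusted p = 0.881).

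**Figure D5:**
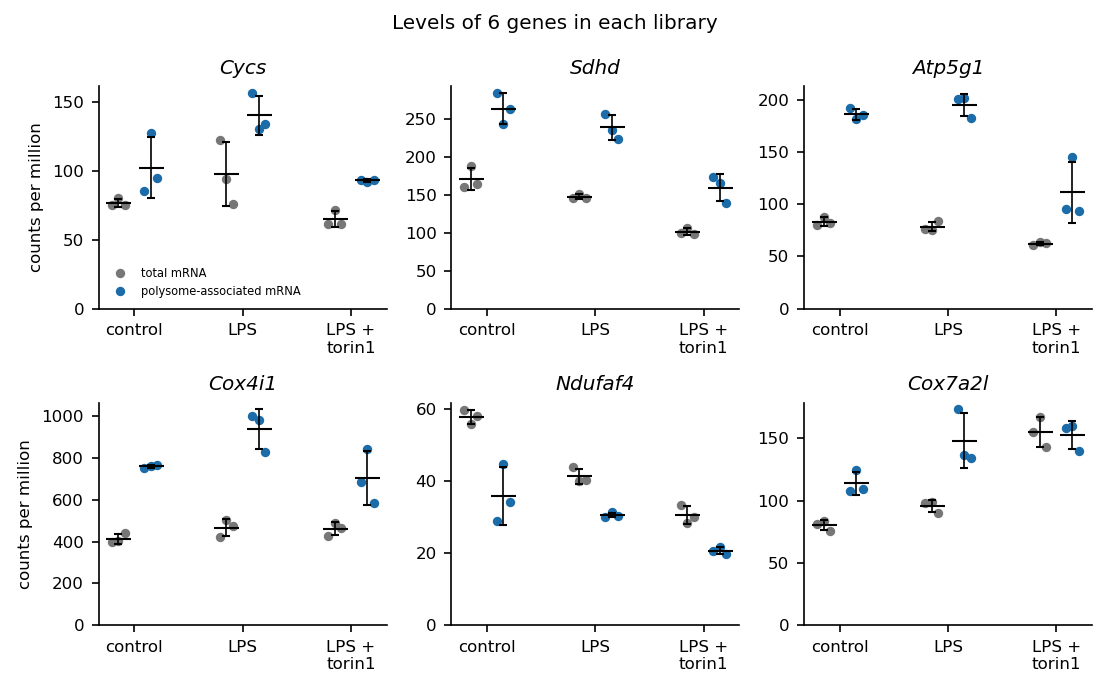
Level in CPM (vertical axes from 0) of Cycs, Sdhd, Atp5g1, Cox4i1, Ndufaf4 and Cox7a2l in each library of total mRNA (grey) and polysome-associated mRNA (blue), by treatment. Points are the 3 experiments and bars are mean ± SD. Cox7a2l is at 154.9 ± 12 CPM in total and 152.5 ± 11.1 CPM in polysome-associated mRNA with torin1, against 95.5 ± 4.7 and 148.2 ± 22.3 with LPS.

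Translation efficiency, the change on polysomes less the change in total mRNA, was tested as an interaction over all 18 libraries. With torin1 against LPS no gene of the 11243 passed an FDR of 0.25 with a fold of 1.2 (0% in either direction) by edgeR. Taking an unadjusted p below 0.05 instead, translation efficiency was lower for 4 respiratory genes and higher for 0, against 0.845% and 0.133% of all genes. The 4 were Cox7a2l, Atp5g1, Atp5g2 and Cox4i1. Over all genes fewer reached this p than the threshold of 0.05 gives with no true change. The test is thus conservative, and a lack of calls does not show a lack of change. Cox7a2l had the largest difference, −0.68 ± 0.17, with −0.82, −0.56 and −0.63 in the 3 experiments. Its adjusted p by edgeR was 1.

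With the lysate as a block, the test called 25 genes lower of all 11243, or 0.222%, and Cox7a2l was the only one among the 86, at an adjusted p of 0.141 by edgeR. DESeq2 also called it, at 0.0722. Over all alternatives its adjusted p by edgeR, DESeq2 or limma ran from 0.0178 to 1. Atp5g2 was at −0.54 ± 0.25, Atp5g1 at −0.50 ± 0.19 and Cox4i1 at −0.43 ± 0.18. None of these passed with the block or with DESeq2. The smallest p among higher values belonged to Atp5b, Atp5a1 and Ndufb2, at 0.23, 0.13 and 0.19. The median of the 86 genes was −0.12 ± 0.05, against −0.02 for all genes, and it was −0.07 with RLE in place of TMM scaling. Of the 86, 29 genes were lower in all 3 experiments and 5 higher, again without a count over all genes. The 84 cytosolic ribosomal protein genes in the table, known targets of mTOR-dependent translation, had a median of −0.56 ± 0.15, and 21 of them were called lower with the block.

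With LPS against control, translation efficiency again gave no call by edgeR (0% in either direction), and 0 over all genes with the lysate as a block. The rebuilt analysis of partial variance called 10 of all genes and 0 of the 86. The study reported a subset of mRNAs with altered translation efficiency after LPS, using anota2seq. With an unadjusted p below 0.05 by edgeR, 0 respiratory genes were higher and 0 lower, against 0.213% and 0.178% of all genes. This is again fewer than that threshold gives with no true change, so the lack of calls does not speak against the study's subset. The smallest p belonged to Atp5s, at 0.58 ± 0.34, with Ndufb5 and Cox7a2 next among higher values (0.19 and 0.26) and Ndufaf5 and Atp5d among lower ones (−0.19 and −0.18). The median was 0.06 ± 0.12.

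LPS with torin1 against control gives the sum of both steps and shares its libraries with each of them. In total mRNA 38 genes were lower and 4 higher, against 33.6% and 33.1% of all genes. On polysomes 33 were lower and 2 higher, against 29.7% and 28.5%. The medians were −0.15 ± 0.05 and −0.23 ± 0.12. Without experiment 3 the 42 calls in total mRNA became 26, and the 7501 over all genes became 6224. In total mRNA the lowest were Ndufaf4, which fell by 0.92 ± 0.09 (edgeR adjusted p = 3.04e-05), Sdhd by 0.75 ± 0.10 and Ndufa5 by 0.59 ± 0.11. Cox7a2l rose by 0.95 ± 0.10 (edgeR adjusted p = 2.82e-05), followed by Ndufa1 at 0.25 and Ndufa7 at 0.20. On polysomes Ndufaf2, Ndufaf4 and Atp5g1 fell by 0.81, 0.80 and 0.74, and Cox7a2l and Atp5b rose by 0.42 and 0.25. Without experiment 1, experiment 2 or experiment 3 the polysome count of 35 became 17, 51 and 8. The count over all genes, 6546 in the main fit, became 4543, 7627 and 4156.

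By complex, this comparison called 20 lower and 2 higher of 36 genes in complex I in total mRNA, 1 lower of 4 in complex II, 2 of 8 in complex III and 7 of 15 in complex V. Over all genes 33.6% were lower and 33.1% higher. Complex IV had 1 higher and 1 lower of 12, and its median was 0.03 ± 0.01, where those of the other complexes lay between −0.21 (complex I) and −0.13 (complexes II and III). On polysomes complex IV had 0 calls of 12, against 29.7% lower and 28.5% higher over all genes. Its median there was −0.06 ± 0.18. Cycs, higher with LPS and lower with torin1 than with LPS, was at −0.24 ± 0.15 against control in total mRNA and at −0.14 ± 0.17 on polysomes, where it did not pass. Atp5sl was at 0.04 ± 0.15 and −0.16 ± 0.19 and did not pass in either.

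The genes with promoter motifs are a description of the same calls. Of the 11 genes with the NRF1 letters, 4 were lower with torin1 against LPS in total mRNA and 5 on polysomes. Of the 17 with the ETS letters it was 2 and 3, and of the 8 with AAGATGGCG it was 4 and 3, with Atp5sl higher in both RNA types. Over all genes 26.4% were lower in total mRNA and 18.2% on polysomes, and over the 86 genes 41.9% and 36%. The genes with the ETS letters were at or below the share over all genes in both RNA types. Of the 12 regulators of respiratory genes in the table (of 14 listed), 2 rose and 4 fell with LPS in total mRNA, and 4 rose and 0 fell with torin1 over LPS. Over all genes 32.2% rose and 34.3% fell with LPS, and 27.3% rose and 26.4% fell with torin1. Ppargc1b, a coactivator of NRF1 target genes, fell by 2.32 ± 0.24 with LPS (edgeR adjusted p = 3.79e-05) and rose by 1.09 ± 0.24 with torin1 over LPS (edgeR adjusted p = 0.00864).

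The other genes of mitochondrial metabolism were counted in the same tests, in which torin1 against LPS called 26.4% of all genes lower and 27.3% higher in total mRNA, and 18.2% and 20.3% on polysomes. The 10 mtDNA-encoded subunits gave 0 calls in total mRNA with LPS or with torin1 against LPS, and 3 of the 10 were higher on polysomes in each comparison. With the experiment as a block, 5 were higher with torin1 in total mRNA and 7 on polysomes, and with the correction for GC none were. Of 14 enzymes of the TCA cycle, 7 were lower with torin1 in total mRNA and none on polysomes. Idh3a fell by 0.47 ± 0.12 in total mRNA. Of 76 mitochondrial ribosomal protein genes, 49 were lower and 1 higher with torin1 in total mRNA, and 38 were lower on polysomes. Of the 13 subunits and partners outside the rule, 6 were lower and 1 higher in total mRNA. Higd1a, which binds complex IV, fell by 0.50 ± 0.13.

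Some of the 86 genes share sequence with other genes. For 13, at least 20% of the 50-base words of the principal transcript also occur elsewhere, mostly in pseudogenes. Among the genes above these are Atp5g2, Atp5l (68.5%), Cox7c (53.0%), Uqcrb (43.2%), Cycs (28.5%), Cox5b (25.9%), Atp5f1 (23.2%) and Cox6c (21.1%). Their counts are uncertain where reads could be placed at either copy. Of the 86 genes, 30 overlap a gene on the other strand, Cox4i1 with Emc8 among them, and the strand setting of the counting was not given in the sources used here.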

How the data were processed

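Total and heavy-polysome mRNA of RAW264.7 cells was measured in 3 independent experiments with 3 treatments each. The authors prepared stranded, ribosomal RNA-depleted libraries, sequenced them paired-end, aligned reads to GRCm38 with Hisat2 in a nextflow pipeline, and assigned them to Ensembl genes with featureCounts. Only protein-coding genes detected in all libraries were retained. The values deposited by the authors are raw counts per gene. All columns were used.

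Counts were tested in R 4.3.3 with edgeR 4.0.16 (quasi-likelihood test, TMM, Benjamini-Hochberg over all 11243 genes), with the 9 libraries of an RNA type in one model, at the FDR of 0.25 of the study's methods. Translation efficiency was an interaction over 18 libraries. It and polysomes against total mRNA also needed a fold of 1.2. The study used anota2seq. Its analysis of partial variance was rebuilt with limma 3.58.1 as an alternative, with a pseudocount of 0.5. DESeq2 1.42.0, RLE scaling, a minimum of 10 counts, an FDR of 0.05, each experiment left out, only the treatments compared and a replicate block were the others. Medians are means ± SD of 3 within-experiment medians, and SE comes from the edgeR fit.

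Experiment numbers come from the labels. Over all genes, deviations of libraries with the same number correlated by 0.336 on average in total mRNA (lowest 0.149) and 0.291 on polysomes (lowest −0.0919). Those of other numbers correlated by −0.167 and −0.143. Deviations cancel within a group, so the values for other numbers follow from the same-number averages and are no separate support for the labels. Among the respiratory genes the same-number averages were lower, at 0.123 in total mRNA (lowest −0.537) and 0.178 on polysomes (lowest −0.361). The methods describe both RNA types as taken from each lysate. The p-values rest on 3 experiments.

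The GC correction adds a smooth trend of each library on transcript GC as an offset, for 10756 genes. Annotation was GENCODE M21 (GRCm38), and promoters came from RefSeq (GRCm38.p6). Genes, lists and tests were chosen with earlier results of these data known. Named are the 3 largest rises and falls per comparison among genes past the threshold that moved alike in every experiment (by smallest p where none passed), the ends of each complex for torin1 against LPS, the Sdh and c ring genes, Cycs, Ndufa4 and the most abundant gene of each complex. Ndufb8, Ndufs4, Cox4i1, Uqcrb, Atp5f1, Atp5c1 and a few others were named after their values were seen.

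The tests were first tested on simulated counts in which 200 genes changed by 1 on the log2 scale with torin1 against LPS. They recovered 80.5% of these in total mRNA, 81.5% on polysomes and 47.5% for translation efficiency (42% with the lysate as a block). Unchanged genes made up 47 of 208, 30 of 193 and 23 of 118 calls of the main tests in that order. Smaller changes were not simulated, so missing calls for translation efficiency do not show that nothing changed.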

Additional observations from a re-analysis of the deposited data

How the results depend on the processing

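The number of the 86 genes called stayed within 1.5 times its main value in 76 of 104 combinations of comparison and alternative. These include the 2 comparisons of translation efficiency, where the main value was 0 and an alternative with 0 calls was counted as unchanged. At an FDR of 0.05 the number called fell in every treatment comparison: to 5 and 1 for LPS against control in total and polysome-associated mRNA, 16 and 4 for torin1 against LPS, and 20 and 11 for LPS with torin1 against control. Over all 11243 genes these counts were 5132 and 3654, 3279 and 1557, and 5340 and 3950. Leaving out each experiment gave 14 to 29, 25 to 34 and 26 to 38 in total mRNA for these comparisons in that order, and 1 to 35, 1 to 49 and 8 to 51 on polysomes, with fewer libraries in each fit. Over all genes these fits called 6238 to 7062, 3959 to 5385 and 6224 to 7008 in total mRNA. On polysomes they called 3901 to 7251, 1187 to 5182 and 4156 to 7627. The GC correction, alone or with the block, and the block with no minimum fold were chosen after seeing the data. The correction gave 35 and 25 of the 86 genes for LPS, and 7625 and 6810 of all 10756 genes. Joined to the replicate block it gave 49 and 41 for LPS and 62 and 59 for torin1 against LPS, and 54 on polysomes for LPS with torin1 against control. Over all 10756 genes those fits called 8336 and 7807, 7506 and 6995, and 8011 in that order. For translation efficiency with torin1, DESeq2, the replicate block, the block with no minimum fold and the block with the GC correction each called 1 gene. Over all genes they called 13, 25, 25 and 36 in that order. The replicate block alone raised the counts, to 26, 51 and 47 in total mRNA for the comparisons in the order above and to 16, 47 and 49 on polysomes. Over all 11243 genes it called 8223, 7196 and 8266 in total mRNA and 7062, 5587 and 7451 on polysomes. It ended no call: each of the 20, 41 and 42 genes called in total mRNA and the 11, 32 and 35 on polysomes kept its call.

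Of the medians, 49 of 54 moved by less than their SD. With the GC correction, LPS against control became 0.079 in total mRNA and reversed to 0.12 on polysomes, and polysomes against total mRNA became 0.60. Structural subunits alone gave 0.73 there. RLE scaling gave −0.067 for translation efficiency with torin1. With Ndufa4 in complex I, the median of complex IV for LPS with torin1 against control was 0.037. The causes were not tested.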

Other observations

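The torin1 polysome libraries of experiment 2 lay apart for some genes. Ndufb7 was at 46.29, 105.7 and 37.77 CPM with LPS and torin1 on polysomes in experiments 1, 2 and 3, and Uqcr11 at 45.92, 119.3 and 36.8 CPM. Ndufs7 was at 26.77, 61.51 and 25.2 CPM. With LPS alone, experiment 2 was again the highest for all 3 genes, with 79.96, 126.3 and 55.97 CPM for Ndufb7. These genes were chosen after their values were seen. None of them passed for torin1 against LPS on polysomes.

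With 3 experiments, the median SE of a respiratory gene was 0.23 for translation efficiency against 0.19 on polysomes and 0.12 in total mRNA. Protein levels and respiration were not analysed here. Heavy polysomes were pooled, so a shift among lighter fractions is not seen.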
